A study of Mus musculus with 36 samples.

Results

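Muc19-high cells were taken from the Drop-seq libraries of 26 mouse salivary glands as the barcodes in which Muc19 made up 2% or more of all transcripts counted. Transcripts were counted by unique molecular identifiers (UMIs), short random tags that mark each captured mRNA once. Only barcodes with at least 100 genes and under 15% mitochondrial UMIs were kept, and of 23346 such cells 379 (1.62%) passed the Muc19 rule. The glands came from C57BL/6 mice, 1 submandibular gland per library, which was dissociated, sorted for live cells with gates that leave out clusters, fixed in methanol and captured in droplets. All animals carried K14-Cre, which is active in basal cells of the gland, and a Cre-inducible EYFP reporter. Control mice carried nothing further, whereas double-mutant mice also carried a gain-of-function allele of β-catenin and a loss-of-function allele of Bmpr1a, both switched by the same Cre in basal cells and their progeny. The control group had 6 glands at P40 (postnatal day 40) and 6 at P90, the double-mutant group 7 at each stage, and males and females were present in all of them. The labels give each gland a batch, a sex and a replicate number, and p-values measure only the spread between these glands, which may in part be technical.

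Salivary glands hold serous cells, which secrete enzymes and small proteins in watery fluid, and mucous cells, which secrete large glycoproteins called mucins. Muc19 encodes a gel-forming mucin of mouse saliva. A mucin is made by adding sugar chains, begun by N-acetylgalactosamine transferases of the Galnt family, to serines and threonines of a long repetitive protein in the Golgi. The sugars come from the hexosamine pathway, and many chains end in sialic acid. The transcription factor Spdef and the membrane-bound factors of the Creb3l family are known from mucous and goblet cells of other organs. Smgc, a secreted protein of young submandibular glands, is transcribed from the same locus as Muc19.

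The name mucous was checked against the 3 markers given for it. Muc19 itself chose the cells. Galnt12, one of the transferases that add sugar to mucins, had 109 UMIs in 87 of the 379 cells (23.0%), against 0.792% of all other cells and 1.47% of macrophages, which should lack it. Bpifb2, a secreted protein of the BPI-fold family, had 0 UMIs in the Muc19-high cells and 1 in all other cells together, so the label rests on Muc19 and Galnt12. None of the mucins Muc2, Muc5ac and Muc5b or the trefoil factors Tff1, Tff2 and Tff3, which mark mucous cells of the gut and airways, had a UMI in the Muc19-high cells. Spdef was seen in 42.5% of them and in 4.72% of other cells, and Creb3l1 in 55.4% and 9.05%. The labels name the submandibular gland. The sublingual gland, which lies against it, is known for its many mucous cells and for Muc19, and how much sublingual tissue each library holds was not tested, so that the number of such cells in a library need not be that of the submandibular gland.

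The locus of Muc19 lies on chromosome 15 of mm10 at chr15:91838326-91934555 on the plus strand. Its annotated start and the RefSeq start of Smgc are 2 bases apart, and 95 exonic bases, 2.79% of those of Smgc, belong to both genes, so that a read from these bases could not be told apart by gene. RefSeq promoter sequences (build GRCm38.p6) were found for 20 of 31 genes that the comparisons turn on. The 250 bases before the start are printed for Smgc, because its start is also that of Muc19, and for a transcription factor, an abundant gene and a sugar-pathway gene of these cells that held a match. Capitals mark TATAAA in Smgc, and ACGTG or its reverse complement CACGT in the others. The regions are chr15:91838078-91838327 (plus strand) for Smgc, chr17:27728952-27729201 (minus strand) for Spdef, chr7:126625471-126625720 (minus strand) for Nupr1 and chr6:87042596-87042845 (plus strand) for Gfpt1, each given 5′ to 3′ along its gene.
Smgc: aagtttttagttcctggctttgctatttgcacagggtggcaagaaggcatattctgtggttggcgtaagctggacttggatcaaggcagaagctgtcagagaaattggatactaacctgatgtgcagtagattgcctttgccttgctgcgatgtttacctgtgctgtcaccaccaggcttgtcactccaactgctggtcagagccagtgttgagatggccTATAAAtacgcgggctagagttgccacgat
Spdef: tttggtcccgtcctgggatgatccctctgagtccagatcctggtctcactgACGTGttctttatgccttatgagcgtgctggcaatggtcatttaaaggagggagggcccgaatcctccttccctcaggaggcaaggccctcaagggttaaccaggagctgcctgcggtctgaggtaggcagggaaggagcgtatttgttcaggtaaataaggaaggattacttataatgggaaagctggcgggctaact
Nupr1: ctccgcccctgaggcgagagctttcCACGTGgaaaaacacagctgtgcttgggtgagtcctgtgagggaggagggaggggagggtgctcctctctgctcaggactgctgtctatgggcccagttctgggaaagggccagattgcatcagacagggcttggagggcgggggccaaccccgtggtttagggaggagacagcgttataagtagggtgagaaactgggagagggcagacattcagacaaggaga
Gfpt1: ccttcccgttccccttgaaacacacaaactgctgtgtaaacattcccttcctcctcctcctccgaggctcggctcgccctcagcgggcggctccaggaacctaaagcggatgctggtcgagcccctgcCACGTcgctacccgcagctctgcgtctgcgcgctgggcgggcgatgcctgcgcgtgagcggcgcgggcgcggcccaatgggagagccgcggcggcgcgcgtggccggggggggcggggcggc
ACGTG, searched on both strands, occurred in 5 of the 20 promoters (25%) and in 19.6% of 32851 promoters of the same length. TATAAA occurred in 4 of the 20 (20%) and in 13.6% of all, and in Smgc it began 30 bases before the start. Both shares are near those of all promoters.

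Muc19-high cells were spread unevenly over the glands. They were found in 15 of 26 glands, 9 of 14 double-mutant and 6 of 12 control glands, and 343 of the 379 cells came from double-mutant glands. The P90 double-mutant gland of replicate 6 held 126 in 1103 kept cells, a share of 11.4% (exact 95% interval 9.61 to 13.4%). The P40 double-mutant gland of replicate 7 held 87 in 850 cells, a share of 10.2% (8.28 to 12.5%). Together these glands gave 56.2% of all Muc19-high cells. The intervals cover counting error only.

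In the other double-mutant glands the share was lower. At P90 it was 3.31% in replicate 5, 1.39% in replicate 3 and 0.584% in replicate 4, and replicates 1, 2 and 7 had no such cell. At P40 it was 2.57% in replicate 6, 2.40% in replicate 4, 1.69% in replicate 2 and 1.14% in replicate 3, and replicates 1 and 5 had none. Control glands at P40 held 1.42% in replicate 4, 0.741% in replicate 2, 0.523% in replicate 3 and 0.249% in replicate 6. At P90, 2 of 6 control glands had any, with 0.623% in replicate 3 and 0.184% in replicate 1. The other 11 glands held 0 Muc19-high cells in 606 to 1067 kept cells, which allows a share of up to 0.281 to 0.495%.

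**Figure D1:**
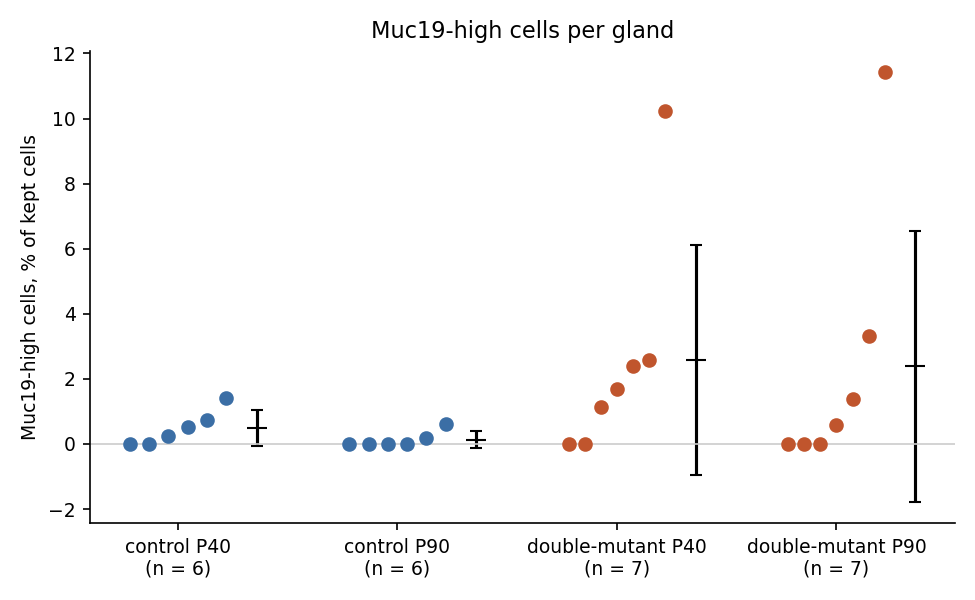
Share of Muc19-high cells among the kept cells of each gland (vertical axis, %), by genotype and stage. Each point is 1 gland, and the bar beside each group gives the mean ± SD. The 2 highest glands, at 10.2% and 11.4%, are double-mutant, and every group has glands at 0.

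The mean share was 2.48% ± 3.71 (SD, n = 14) in double-mutant and 0.312% ± 0.443 (n = 12) in control glands, a difference of 2.17 percentage points (two-sided permutation test, p = 0.0247, and 0.0987 adjusted by Benjamini-Hochberg over the 4 tests of shares). The ranges of both genotypes overlapped, since glands with none were found in each. Without the P90 gland of replicate 6 the difference was 1.48 points (permutation p = 0.0281), and without both highest glands it was 0.778 points (permutation p = 0.0437). Within P40 alone the difference was 2.09 points (p = 0.111, exact permutation test) and within P90 alone 2.25 points (p = 0.192, exact permutation test). When labels were permuted only within batches that hold both genotypes, 9 double-mutant and 10 control glands remained. Their difference was 2.82 points (permutation p = 0.0116), over fewer glands than the 2.17 points above. The number of glands with any Muc19-high cell gave p = 0.692 (Fisher's exact test, 9 of 14 against 6 of 12).

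The genotype difference also depended on where the line was drawn. At a Muc19 share of 1% or more there were 407 cells in double-mutant and 102 in control glands (difference in mean share 2.08 points, permutation p = 0.0858). At 5% there were 159 and 2 (difference 1.06 points, permutation p = 0.0885). With cells chosen instead by BC048546 at 2% or more of UMIs, a gene that moved closely with Muc19, there were 394 and 122, with mean shares of 2.91% ± 3.80 (n = 14) and 1.10% ± 1.37 (n = 12) and a permutation p of 0.145. Pooled over cells, the median Muc19 share of the chosen cells was 4.59% in double-mutant and 2.77% in control glands, a description only. By stage it was 3.46% at P40 and 7.08% at P90 in double-mutant glands, and 2.77% and 2.74% in control glands. Of the 343 double-mutant cells, 126 came from the P90 gland of replicate 6, with a median of 7.41%, so the pooled values cannot be read as a genotype difference.

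For stage and sex the unadjusted p was also above 0.05. Among control glands the mean was 0.489% ± 0.542 at P40 and 0.135% ± 0.250 at P90 (n = 6 each, exact permutation p = 0.197), and the control glands of P90 belonged to batches B7, B8 and B9 and those of P40 to B12, B13 and B14, so stage and batch cannot be told apart there. Among double-mutant glands it was 2.58% ± 3.53 at P40 and 2.39% ± 4.16 at P90 (n = 7 each, exact permutation p = 0.883). Males were 0.512 points below females (permutation p = 0.588), and 5 of 12 male and 10 of 14 female glands held Muc19-high cells (Fisher's exact test, p = 0.233). The difference between genotypes in the stage effect gave a permutation p of 0.918 and that in the sex effect one of 0.728. The transcripts of the sex chromosomes went against the labelled sex in 2 double-mutant libraries. These were P40 replicate 1, labelled male, with no Muc19-high cell, and P90 replicate 5, labelled female, with 40. The counts of male and female glands above keep the labels. Without these 2 libraries males were 0.280 points below females (permutation p = 0.715). The genotype difference was then 2.31 points (permutation p = 0.0135).

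Muc19-high cells came from the glands that also held Dcpp-high cells, a secretory cell type whose Dcpp1, Dcpp2 and Dcpp3 transcripts make up 2% or more of UMIs. Of the 15 glands with Muc19-high cells, 14 held 38 to 352 Dcpp-high cells and 1 held 2, whereas glands without Muc19-high cells held at most 10. Seromucous acinar cells, taken as cells with Prol1 at 2% or more and above the marker genes of ducts and Dcpp-high cells, numbered 57 to 590 in glands with Muc19-high cells and 61 to 752 in the others, so these ranges overlapped. As the libraries count cells after dissociation and sorting, a different number in the gland and a different yield cannot be told apart.

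The rule used the Muc19 level, which is given only as a description. The median share of Muc19 in the chosen cells was 4.32%, the highest 13.1%, and the number of Muc19 UMIs ran from 5 to 210 with a median of 52. Of 29659 Muc19 UMIs in all kept cells, 76.8% lay in these 379 cells. At most 29 Muc19 UMIs were found in any gland without Muc19-high cells, and 5 glands had none. The lowest cell inside the line had 2.01% and the highest cell outside 1.998%. Just outside, 72 cells at 1.5 to 2% had a median BC048546 share of 4.23%, and just inside, 47 cells at 2 to 2.5% had 4.14%, so the line ran through cells that were alike in this gene. The chosen cells had a median of 1089 UMIs and 613 genes, against 1543 UMIs and 485 genes in all other cells. Within glands their median number of UMIs was above that of the other cells in 6 of 15 glands, among them the 3 with most Muc19-high cells, and their median number of genes in 14 of 15. Their median mitochondrial share of UMIs, a sign of RNA quality, was above that of the other cells in 15 of 15 glands (2.83 to 8.86% against 0.739 to 5.02%), and its part in the comparisons with other cells was not tested.

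Markers of other cell types were low in the chosen cells in most glands, with Dcpp and duct genes the highest. The 9 glands with at least 10 Muc19-high cells together held 353 of them. Levels in these glands are given in CPM (UMIs scaled to 1 common total per population and gland, with Muc19 left out of the total). The summed level of 10 seromucous acinar markers was 2831 to 11099 CPM in Muc19-high cells and 20043 to 167389 CPM in all other cells. In acinar cells it was 83521 to 212675 CPM, a description only, since Prol1 is among the markers and chose these cells. The Dcpp genes summed to 539 to 55332 CPM, against 17363 to 186786 CPM in the other cells of the gland, with a median of 6766 CPM in Muc19-high cells. The 12 duct markers, which include Smgc, summed to 1173 to 15917 CPM against 2758 to 31511 CPM in the other cells and 219 to 1071 CPM in acinar cells, and lay above the other cells in 3 of 9 glands. The part of these transcripts in the results was not tested. Of the macrophage markers all 9 had UMIs, with a sum of 0 to 1756 CPM, and the T and NK markers were all at 0. At 2% or more of UMIs, 19 cells also held the Dcpp genes, 31 held Smgc, 3 held Klk1 and 1 held Prol1, and 1 cell had 3 or more UMIs of macrophage genes. No doublet caller was run. Of the barcodes, 19 occurred in more than 1 library, 1 of them a Muc19-high cell. EYFP was seen in 8.71% of the Muc19-high cells, in 11.6% of other cells and in 9.005% of macrophages, all pooled over glands. Libraries differed widely in EYFP. The double-mutant glands of P90 replicate 6, P40 replicate 7 and P90 replicate 5 gave most Muc19-high cells. They had 0 EYFP UMIs in these cells and 6, 2 and 0 in their other cells. The P40 double-mutant gland of replicate 3 had 5 and 435. The pooled shares therefore cannot be compared, and EYFP within glands was not tested.

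The most abundant transcript of Muc19-high cells other than Muc19 was BC048546, a gene known by a clone name, at chr6:128539821-128581608 on the minus strand. In the 9 glands its level was 37146 to 64296 CPM with a mean of 51657 ± 8498 (SD). In each of these glands the BC048546 level of Muc19-high cells was far above that of acinar cells (11.3 to 66.9 CPM) and of Dcpp-high cells (558 to 4181 CPM). Of the 379 cells, 374 had BC048546 at 1% or more of UMIs and 2 had none. Conversely, 153 cells below the Muc19 line had BC048546 at 2% or more, with a median Muc19 share of 1.40%, and 86 of them came from control glands.

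**Figure D2:**
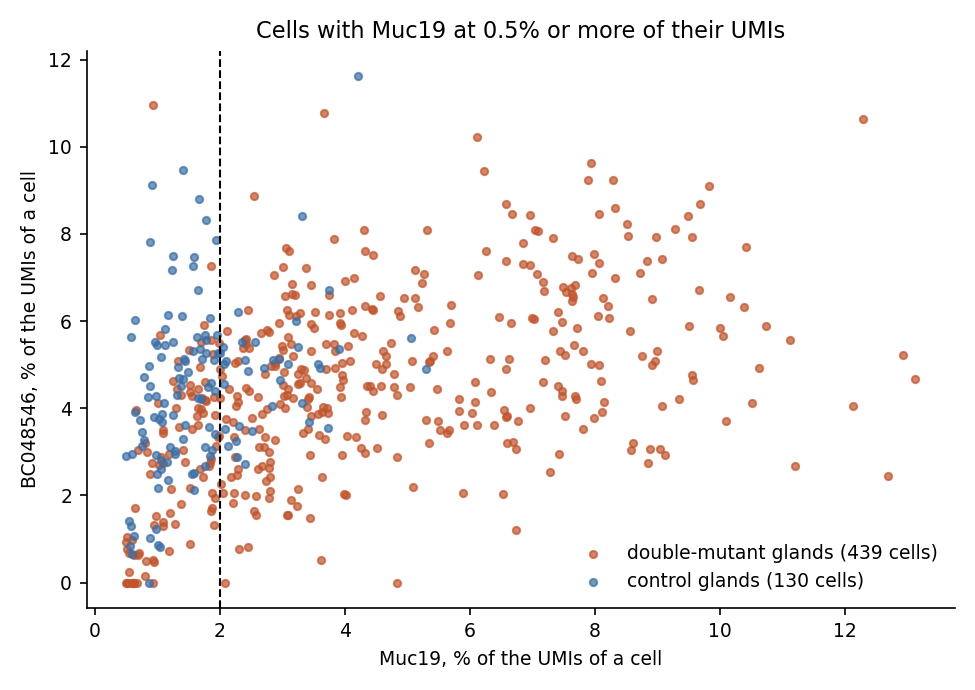
Share of BC048546 (vertical axis, % of the UMIs of a cell) against the share of Muc19 (horizontal axis, %) in cells with Muc19 at 0.5% or more, coloured by genotype. The dashed line is the rule at 2%, and cells of both genotypes with high BC048546 lie on either side of it.

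Within glands the 2 genes moved together in most cases. The Spearman correlation of their shares over the Muc19-high cells of a gland was 0.254 to 0.624 in 8 double-mutant glands and -0.204 in the 15 cells of the P40 control gland of replicate 4. These cells share a library, and the coefficients are descriptions. Across all 26 glands, the genes whose share of all UMIs ranked most like that of Muc19 were Dnajc10 (Spearman rho 0.926), BC048546 (0.911), the core 3 glycan synthase B3gnt6 (0.895), Tcea3 (0.883) and Sec23b, a coat protein of vesicles that leave the endoplasmic reticulum (ER) (0.809), followed by Snhg18, Tgoln1, Arf4, Pglyrp1 and Isg20 (0.802 to 0.773). The glands share a tissue and differ in depth, so these ranks carry no test.

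Small secreted and stress proteins were among the next most abundant genes. Wfdc12, a whey acidic protein that inhibits proteases, was at 38489 CPM ± 12671 (SD, n = 9 glands, range 23824 to 58812). Nupr1, a small nuclear protein induced by cell stress, was at 18537 CPM ± 7976 (range 8932 to 36359). Spt1, an abundant salivary protein of acinar cells, was at 13382 CPM ± 6818, and Smgc at 7516 CPM ± 4350 (range 856 to 15110). Pigr, the receptor that carries IgA across secretory epithelium, was at 5076 CPM ± 2540. Wfdc12 and Nupr1 were high in all 9 glands, while Smgc was lowest in the P90 double-mutant gland with the most Muc19-high cells.

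Cells with more Muc19 differed from those with less, as read over sums of cells binned by the Muc19 share, a description because the bins are cut on the chosen measure. BC048546 was at 44205 CPM in 88 cells at 2 to 3% Muc19, 53684 CPM in 130 cells at 3 to 5%, 60678 CPM in 103 cells at 5 to 8% and 65215 CPM in 58 cells at 8% or more. Creb3l1, an ER-bound transcription factor of secretory cells, went from 549 to 704, 1119 and 1837 CPM over the same bins. Gfpt1, the first enzyme of the hexosamine pathway, went from 1575 to 2830 CPM and Galnt12 from 173 to 422 CPM. Smgc went the other way, from 11122 to 1964 CPM, as did Wfdc12, from 47948 to 23569 CPM, and Nupr1, from 22410 to 10834 CPM. Lman1l went from 1308 to 1451 CPM in the second bin and was at 655 CPM in the last. Transcripts typical of other secretory cells also fell, Prol1 from 1214 to 253 CPM and Dcpp1 from 4502 to 380 CPM. Their part in the changes of the other genes was not tested. The bin at 8% or more held cells of 3 glands only, all double-mutant, with a median of 846.5 UMIs, against 1254 in the lowest bin.

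The same order was therefore read within the 2 glands with the most cells. In the P90 gland of replicate 6 BC048546 went from 36177 to 53790, 63986 and 73464 CPM over the bins, and in the P40 gland of replicate 7 from 47918 to 52659, 70068 and 70340 CPM. Creb3l1 went from 810 to 1791, 1291 and 2121 CPM in the former and from 486 to 650, 948 and 3126 CPM in the latter, where the last bin held 3 cells. Smgc went from 1080 to 909 CPM in the former and from 8262 to 16022 CPM in the latter, so the decline over all glands was not seen within them. Wfdc12 went from 20518 to 21245 CPM in the former and from 68766 to 50410 CPM in the latter. Nupr1 went from 12689 to 11426 CPM in the former and from 16620.5 to 11333 CPM in the latter. Lman1l went from 270 to 697 CPM in the former and from 1069 to 391 CPM in the latter.

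To place Muc19-high cells among the secretory cells of the same glands, their UMIs were summed per gland and compared with those of acinar and of Dcpp-high cells, with the gland as a block (edgeR quasi-likelihood test, Benjamini-Hochberg over all genes tested, threshold 0.05). The genes that chose either population were left out. Against acinar cells, 869 of 3433 genes tested (25.3%) differed, 381 higher (11.1%) and 488 lower (14.2%). Against Dcpp-high cells, 508 of 1580 genes (32.2%) differed, 244 higher (15.4%) and 264 lower (16.7%). Of 1547 genes tested in both, 152 were higher in Muc19-high cells than in either population and 145 lower than in either. The test scales populations so that most genes balance (median log2 fold change -0.05 and 0.02). Acinar cells spend much of their RNA on a few secreted proteins, Spt1 alone being at 362106 CPM, so a fold in CPM against acinar cells is larger than the fitted fold (scaling factors differed by 2.57 on the log2 scale, median of 9 glands) and every log2 fold change below is relative to the other genes. With RLE size factors the acinar median moved to 0.07, and 464 genes were higher and 372 lower. The acinar libraries were also deeper, and with their reads thinned to the depth of the Muc19-high cells 145 genes were higher and 79 lower of 843 tested, with a median of 0.22.

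Genes that were higher in Muc19-high cells than in both populations were led by BC048546 (log2 fold change 8.15 ± 0.28 (SE) over acinar, adjusted p = 5.55e-68, and 2.31 ± 0.27 over Dcpp-high cells, adjusted p = 6.57e-09). Gal, the neuropeptide galanin, was at 482 CPM ± 209 in Muc19-high cells, 0.607 CPM in acinar and 3.21 CPM in Dcpp-high cells (log2 fold changes 6.47 and 4.46). Lman1l, a relative of the ER cargo receptor Lman1, was at 1261 CPM ± 420, with log2 fold changes of 5.11 and 4.41. Its highest level in any gland was 11.8 CPM in acinar and 28.2 CPM in Dcpp-high cells, so it did not overlap with either. Nupr1 was higher by 2.93 and 2.80, Mfsd4, a member of the major facilitator transporter superfamily, by 5.99 and 1.69, and Cgref1 by 6.08 and 4.12. Tcea3, of the family of transcription elongation factors, was higher by 4.74 and 2.99, and Sec23b by 3.06 and 1.75. All of these were higher in 9 of 9 glands.

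Further genes had almost no transcript in one of the other populations. Nxpe4 had 56 UMIs in Muc19-high cells and 0 in acinar cells, at least 594-fold higher when 3 UMIs are allowed for over all acinar cells. Mobp had 32 UMIs and 0 (at least 340-fold) and the lipase-related gene Pnliprp1 27 UMIs and 0 (at least 286-fold). Isg20, an exonuclease known as interferon-stimulated, was at 557 CPM ± 279 against 0.311 in acinar and 20.9 in Dcpp-high cells (log2 fold changes 7.35 and 2.65). Sel1l3 (6.06 and 3.96), BC030870 (6.46 and 3.97), the synaptotagmin Syt7 (6.72 and 3.64), a calcium sensor of exocytosis, Fgl2 (6.08 and 3.69) and the noncoding RNA Meg3 (5.41 and 3.75) were higher than in both.

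**Figure D3:**
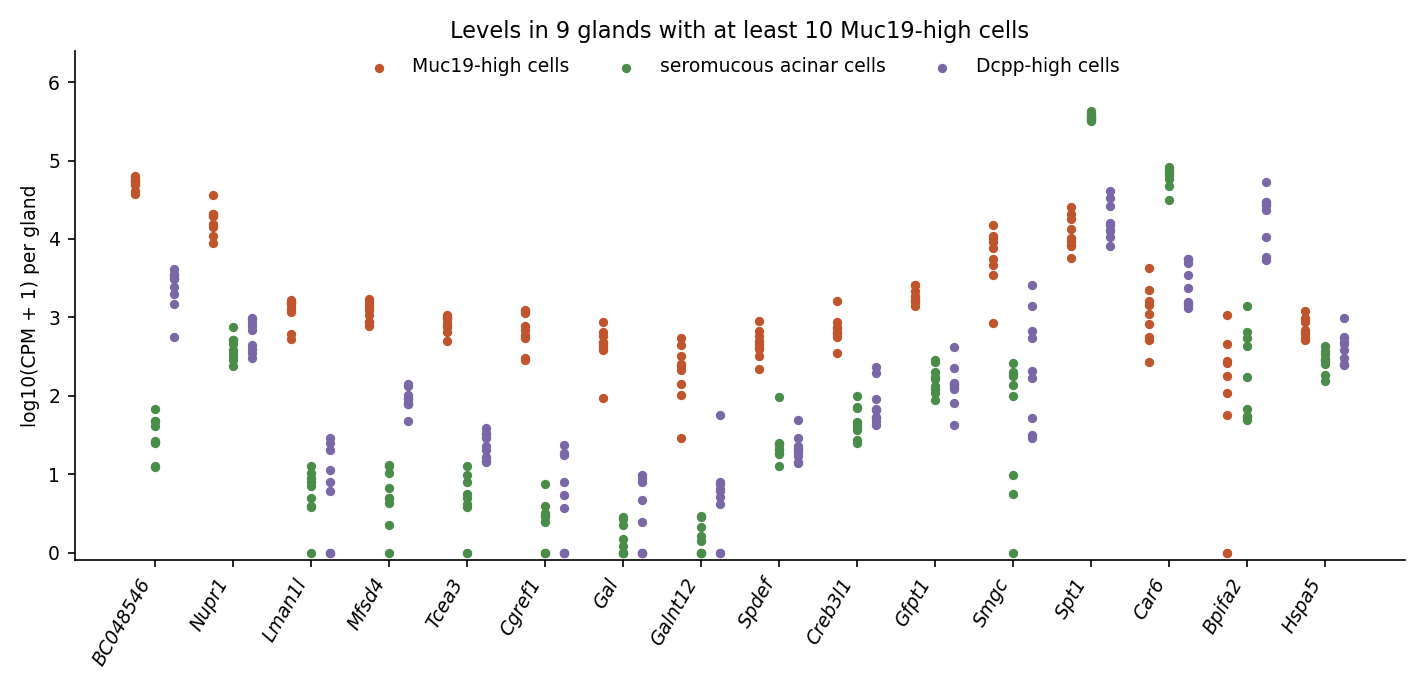
Levels of 16 genes (vertical axis, log10 of CPM + 1) in Muc19-high, seromucous acinar and Dcpp-high cells of the 9 glands with at least 10 Muc19-high cells. Each point is 1 population in 1 gland. BC048546, Nupr1 and Lman1l of Muc19-high cells lie above both other populations in every gland, and Spt1 and Car6 of acinar cells lie above those of Muc19-high cells.

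Many of the genes with the largest falls encode secreted proteins of saliva. Against acinar cells the lower genes were led by Mucl1 (log2 fold change -8.95 ± 0.35), the salivary carbonic anhydrase Car6 (-8.35 ± 0.35), the prolactin-induced protein Pip (-8.05 ± 0.33) and secretoglobins such as Scgb1b27 (-7.97 ± 0.36) and Scgb2b24 (-8.07 ± 0.40). Scgb1b30 had 0 UMIs in Muc19-high cells and 1625 in acinar cells, at least 17.0-fold lower. Against Dcpp-high cells the lowest were Mup4 (-9.30 ± 0.36), Bpifa2 (-9.07 ± 0.45), a BPI-fold protein of saliva, Scgb2b24 (-7.38 ± 0.36), the potassium channel subunit Kcne1 (-6.84 ± 0.35), Wfdc18 (-6.55 ± 0.41) and the peptidoglycan receptor Pglyrp1 (-5.93 ± 0.27). Mup6 had 0 UMIs in Muc19-high cells and 1385 in Dcpp-high cells, at least 45.5-fold lower. Secretoglobin and Mup genes have near-identical copies among which reads may have been split, so the values of single members are uncertain. Spt1 was lower than in both (-7.41 and -2.61), although still the sixth most abundant gene of Muc19-high cells apart from Muc19. Wfdc12 was higher than in Dcpp-high cells (2.86 ± 0.26, adjusted p = 9.31e-12) and passed no threshold against acinar cells (-0.42 ± 0.23, adjusted p = 0.186).

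The genes of mucin-type O-glycosylation were mostly higher. Of 40 listed, 19 were tested against acinar cells, of which 11 were higher and 1, the transferase Galnt3, lower, beside 11.1% and 14.2% of all genes. The list had a median log2 fold change of 0.76 (all genes -0.05). Against Dcpp-high cells 8 of 14 were higher and 0 lower, beside 15.4% and 16.7% of all genes, with a median of 1.10 (all genes 0.02). In the thinned comparison 10 of 12 and 7 of 12 were higher and 0 lower in either, and with RLE factors 12 and 8 were higher and 1 and 0 lower. Those not tested, 21 and 26 genes, did not pass the filter on counts.

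The higher genes included transferases that begin the chain and genes of the sugar supply. The core 1 genes C1galt1 and C1galt1c1, tested against acinar cells only, and the sulfate transporter Slc26a2, tested in both comparisons, were not called. The core 2 genes Gcnt1 and Gcnt3, the other listed genes of sulfation, Fut1 and Fut2 were too low for a test in either. Gcnt3 had 7 UMIs in Muc19-high cells and 0 in both other populations (at least 74.3-fold and 23.7-fold higher when 3 UMIs are allowed for). Of the transferases that begin the chain, Galnt12 was at 253 CPM ± 162 against 0.663 in acinar and 9.66 in Dcpp-high cells (log2 fold changes 4.94 ± 0.45 and 3.27 ± 0.41). Galnt12 ranged from 27.9 to 538 CPM over the 9 glands, and its lowest gland lay above all acinar values but below the highest Dcpp-high value of 55.7 CPM. Galnt4 (3.78 and 4.80) and Galnt7 (1.23 and 1.67) were higher than in both, and Galnt6 was higher than in acinar cells (5.62) and too low for a test against Dcpp-high cells. B3gnt6, which extends the chain to core 3, was higher by 6.61 and 0.64.

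Of the supply of sugars, Gfpt1 was at 1917 CPM ± 424 (n = 9, range 1401 to 2578) against 170 and 160 CPM (log2 fold changes 1.04 ± 0.17 and 1.56 ± 0.16). Gne, the enzyme that starts sialic acid synthesis, was higher by 0.51 ± 0.19 (adjusted p = 0.0314) and 1.76 ± 0.18. Slc35a1, which carries activated sialic acid into the Golgi, was at 685 CPM ± 282 against 17.2 and 11.5 CPM (2.66 ± 0.22 and 3.43 ± 0.27). Not all listed genes of the sugar supply were higher. Uap1 and Nans were tested in both comparisons and called in neither. Cmas was higher than in acinar cells and not called against Dcpp-high cells. Slc35c1 was higher than in acinar cells and Slc35a2 was not called there, and both were too low for a test against Dcpp-high cells. The sialyltransferase St3gal4 was higher than in Dcpp-high cells (3.23 ± 0.25) and missed the threshold against acinar cells (0.47 ± 0.20, adjusted p = 0.0735), and St3gal1 was higher than in acinar cells (0.76 ± 0.22, adjusted p = 0.00355) and missed it against Dcpp-high cells (0.13 ± 0.18, adjusted p = 0.645).

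The genes listed for goblet and mucous cells went the same way where they were high enough to test. Of 25, 7 were tested against acinar cells, with 4 higher and 1 lower (median 1.24) beside 11.1% and 14.2% of all genes, and 5 against Dcpp-high cells, with 4 higher and 0 lower (median 1.196) beside 15.4% and 16.7%. Spdef was at 497 CPM ± 205 (range 216 to 910) and higher by 1.95 ± 0.22 and 2.35 ± 0.23. Creb3l1 was at 749 CPM ± 353 and higher by 1.32 ± 0.20 and 1.03 ± 0.17, and Creb3l4 by 2.79 ± 0.30 and 1.64 ± 0.26. Agr2, an ER protein needed to fold mucins, was higher by 1.24 ± 0.33 (adjusted p = 0.00168) and 1.196 ± 0.37 (adjusted p = 0.011), but in the thinned comparison with acinar cells by 0.54 (adjusted p = 0.514). Bhlha15, a transcription factor of serous secretory cells, was lower than in acinar cells on the fitted scale (-2.25 ± 0.27) and at 75.8 CPM ± 81.8 against 80.2 ± 43.6. The mucins and trefoil factors of the list were among the 18 and 20 genes not tested.

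**Figure D4:**
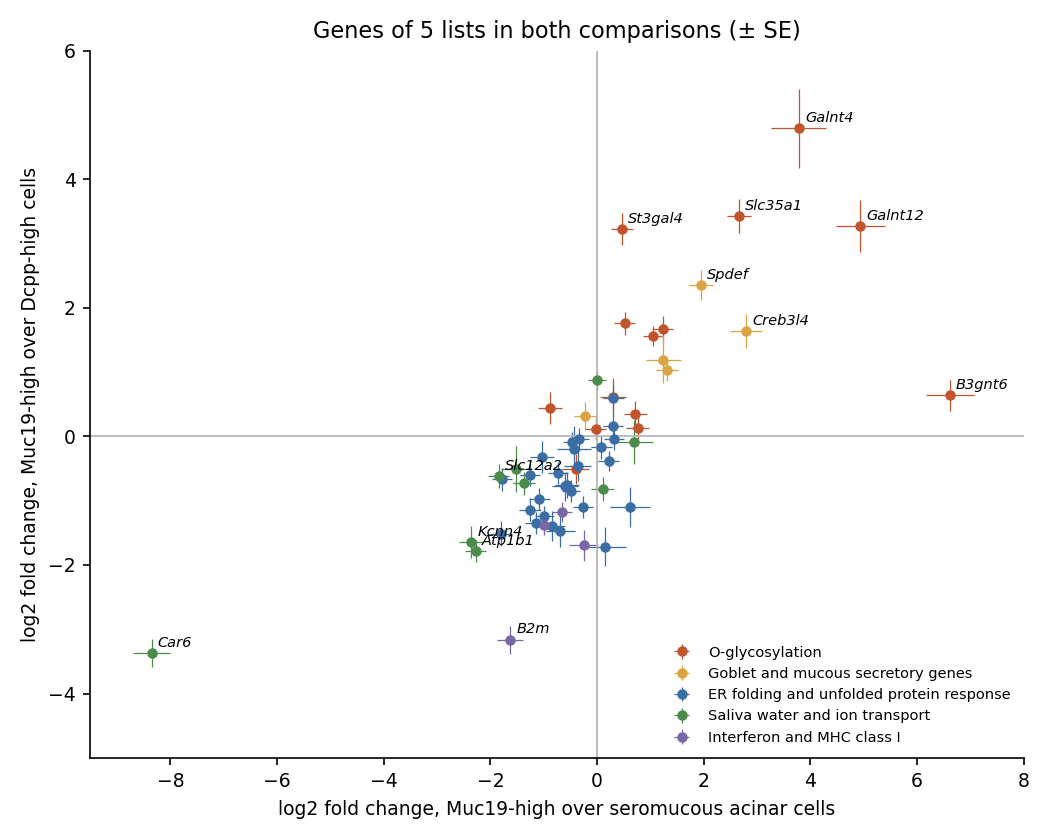
Log2 fold changes of Muc19-high over seromucous acinar cells (horizontal axis) and over Dcpp-high cells (vertical axis), ± SE, for genes of 5 lists tested in both comparisons. Galnt4, Slc35a1, Galnt12 and Spdef lie high on both axes, and Car6, at -8.35 and -3.37, lies lowest on the horizontal axis.

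Genes of protein folding in the ER were lower relative to other genes. Against acinar cells 0 of 29 were higher and 15 lower (median -0.56), against Dcpp-high cells 1, the translocon subunit Sec61a1, was higher and 16 of 26 lower (median -0.71), and this direction holds only on the fitted scale, since in CPM the lowest gland of Muc19-high cells lay above the highest gland of the other population for 11 of the 29 and 4 of the 26, and the reverse held for 0. Of all genes, 20.5% and 27.6% were separated upwards in this way and 0.553% and 0.823% downwards. The shares of all genes that were lower by the fit were 14.2% and 16.7%. Hspa5, the main chaperone of the ER, was at 777 CPM ± 234 in Muc19-high, 286 ± 86.3 in acinar and 468 ± 223 in Dcpp-high cells, and its fitted log2 fold changes were -0.99 ± 0.18 and -1.24 ± 0.16. With RLE factors 3 were higher and 11 lower than in acinar cells, and in the thinned comparison 0 and 7.

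Transport and immune genes were also lower on the fitted scale, while in CPM most of their values overlapped between populations. The shares of all genes to set beside the counts that follow are 11.1% higher and 14.2% lower against acinar cells, and 15.4% and 16.7% against Dcpp-high cells. Of the genes of saliva water and ion transport 0 of 10 were higher and 6 lower than in acinar cells (median -1.45), and 1 of 9 higher and 6 lower than in Dcpp-high cells (median -0.73). Kcnn4, a calcium-activated potassium channel of salivary cells, was lower in both (-2.36 ± 0.24 and -1.65 ± 0.25), with 125 CPM ± 84.6 against 151 ± 98.2 and 109 ± 44.5. Aqp5, the water channel of salivary secretion, was the gene that was higher than in Dcpp-high cells (0.88 ± 0.16, adjusted p = 2.66e-05). Of interferon and MHC class I genes 3 of 5 and 4 of 4 were lower, with B2m, H2-D1 and H2-K1 in both. Pigr was higher than in acinar cells (0.85 ± 0.18), and Ccl28, a chemokine that draws IgA-secreting cells, was higher than in both (1.26 ± 0.19 and 0.77 ± 0.17). Of Wnt and Bmp response genes, 3 were tested in each comparison, with 0 higher and 2 lower, and the β-catenin target Axin2 had 0 UMIs in Muc19-high cells. Of immediate early genes, which dissociation can induce, 3 of 11 were higher and 2 lower than in acinar cells, and 1 of 10 higher and 1 lower than in Dcpp-high cells, counts that are mostly near these shares.

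Within Muc19-high cells, stage gave the most calls, but the counts do not rank the factors, because the design detects them unequally. In data simulated for the fit below, 70.2% of genes changed 4-fold were recovered for stage, 66.7% for sex and 12.2% for genotype. The 9 glands with at least 10 such cells (8 double-mutant and 1 control, 3 at P90 and 6 at P40, 2 male and 7 female) were fitted with genotype, stage, sex and the log2 number of cells, which left 4 residual degrees of freedom. Of 1195 genes, 10 (0.837%) differed between P90 and P40, 8 higher (0.669%) and 2 lower (0.167%) at P90. Jund, a subunit of the AP-1 transcription factor, was at 1616, 2461 and 1424 CPM in the P90 glands of replicates 3, 5 and 6 and at 112 to 365 CPM in the 6 glands at P40 (log2 fold change 2.99 ± 0.37, adjusted p = 7.77e-05). The P90 values did not overlap those at P40. Acinar cells of the same glands had 262 to 926 CPM at P90 and 17.7 to 49.2 CPM at P40, and Dcpp-high cells 305 to 1253 and 44.4 to 95.1 CPM, so Jund was also higher at P90 in those cells.

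Cpe, carboxypeptidase E, which trims peptide hormones in secretory granules, was at 539, 876 and 1024 CPM at P90 and at 92.4 to 335 CPM at P40 (1.90 ± 0.44, adjusted p = 0.0378), while acinar cells had at most 12.1 CPM at either stage. Cebpb (5.07 ± 1.04), the matrix protein gene Vwa1 (6.92 ± 1.44), and the small RNAs Snord13 (2.81 ± 0.55) and Rn7sk (2.94 ± 0.69) were higher at P90, along with 2 genes that have only model names. Rn7sk overlapped between the stages in CPM, since 2 of the 3 P90 glands, at 108 and 102 CPM, lay among those at P40. Edf1 was at 67.4 to 121 CPM at P90 and 487 to 730 CPM at P40 (-2.44 ± 0.53, adjusted p = 0.0272), and Ssr4, a subunit of the translocon-associated complex, at 135 to 323 and 484 to 866 CPM (-2.04 ± 0.47, adjusted p = 0.0378). Edf1 also differed in acinar cells, at 11.9 to 56.3 CPM at P90 and 85.2 to 146 CPM at P40. The number of calls ran from 2 to 39 when 1 gland was left out, with 2 calls without P90 replicate 5 or P40 replicate 7, 3 without P90 replicate 6, 5 without P40 replicate 4, 35 without P40 replicate 2 and 39 without P90 replicate 3, and with batch as a covariate it was 33. All 3 P90 glands were double-mutant.

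**Figure D5:**
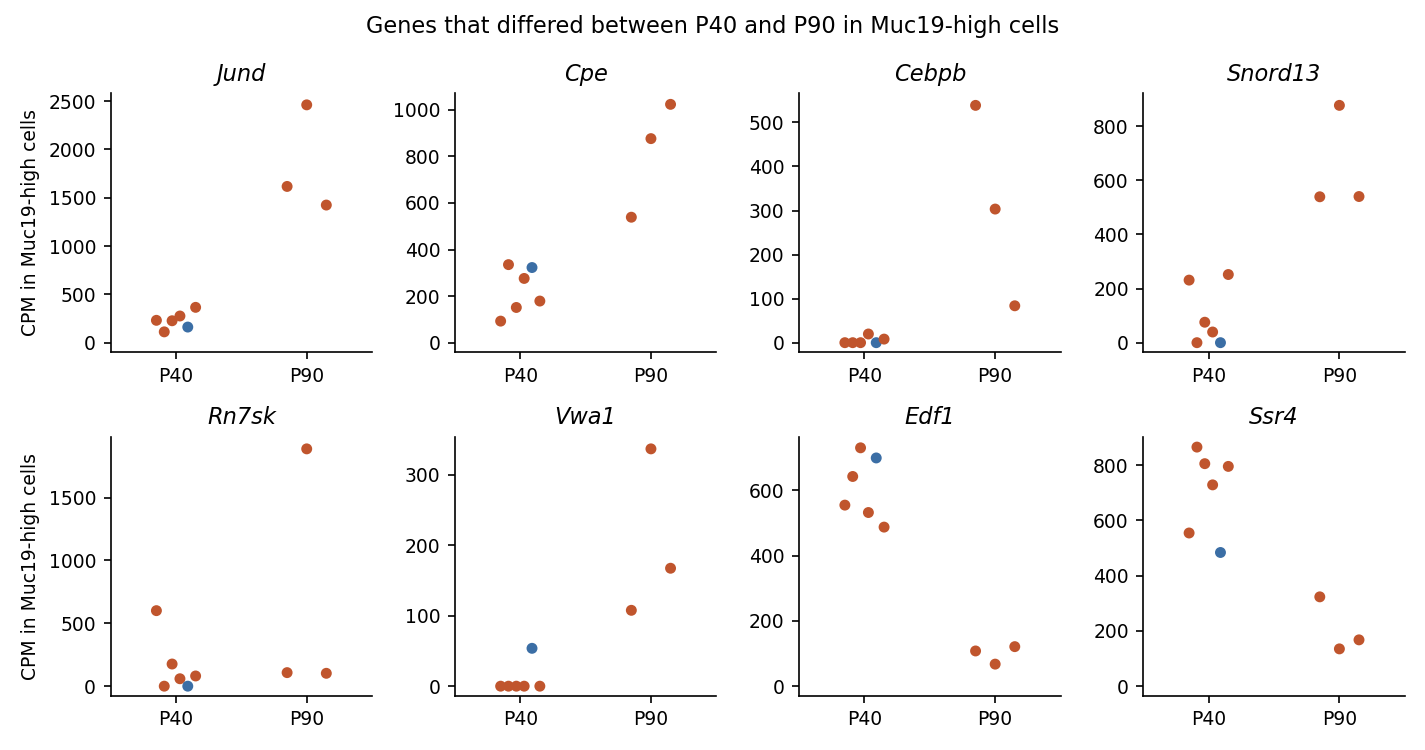
Levels of 8 genes in Muc19-high cells (vertical axis, CPM) of the 6 glands at P40 and the 3 glands at P90, each point 1 gland, double-mutant in orange and control in blue. Jund, Cpe, Edf1 and Ssr4 do not overlap between the stages, and Rn7sk does.

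Between genotypes no gene passed the test within Muc19-high cells. With 8 double-mutant glands and 1 control gland, 0 of 1195 genes (0.0%) differed by edgeR at an adjusted p under 0.05, 62 at an unadjusted p under 0.05, and DESeq2 gave 0 and 25. Spread rests on the double-mutant glands, the single control gland being assumed to vary like them, and in data simulated for this design 12.2% of genes changed 4-fold and 54.5% of those changed 8-fold were recovered, so smaller differences would mostly have been missed. Sex gave 1 call of 1195 (0.0837%), Cyr61, a matrix protein of the CCN family, higher in males (2.65 ± 0.51, adjusted p = 0.0407). It lost the call with DESeq2, with RLE factors, with the batch as a covariate and with glands of at least 5 cells, and without P40 replicates 3, 4 or 7 or P90 replicates 5 or 6. P90 replicate 5 entered this fit as female, although its sex-chromosome transcripts go against that label. Without that gland 1 of 1280 genes was called, a different gene and lower in males, so the call on Cyr61 depends on a doubtful label.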

How the data were processed

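RNA of single cells was measured by Drop-seq in 26 glands. Reads were mapped by the authors to mm10 (annotation GENCODE vM7 plus Cre and EYFP), and the tables they deposited hold raw UMI counts of each gene in the barcodes above the knee. The labels' processing notes also name STAR and featureCounts, which made the deposited exon counts of the bulk libraries. Depth was 777537 to 7013325 UMIs per library. The counts were used as deposited. The limits on barcodes, 100 genes or more and less than 15% mitochondrial UMIs, are those of the study.

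The members and gene lists were chosen with earlier results of these data known. UMIs were summed per gland and compared with edgeR 4.0.16 (TMM, filterByExpr, quasi-likelihood test, limma 3.58.1, R 4.3.3), with DESeq2 1.42.0 as the other tool, and adjusted by Benjamini-Hochberg over all genes tested. SEs came from the F statistic (log2 fold change over its root). Shares per gland were compared by two-sided permutation tests (scipy 1.17.1). The named genes were up to 12 per direction with the largest fold change among those with an adjusted p under 0.05 and a mean of at least 50 CPM in either group, leaving out names of clones and gene models (RP clones, Gm, Rik), plus genes of the lists, the 25 most abundant genes and the 10 most like Muc19. Intervals are exact (Clopper-Pearson) at 95%, and a count of 0 was taken to allow 3. The comparison with acinar cells was tested on simulated data, where unchanged genes had a median log2 fold change of -0.186 and 18 of 173 calls were false (2923 genes), and 0 of 102 after thinning (1053 genes). For Dcpp-high cells 8 of 177 calls were false (1421 genes). Replicate numbers were not used to pair glands in the main tests. Of 37 pairs of glands with 1 number, 19 had correlated deviations over 0.1 (range -0.503 to 0.756). The count for glands of different numbers was not computed, so whether the numbers pair glands was left undecided. CITE-seq and bulk libraries entered no test.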

Additional observations from a re-analysis of the deposited data

Results flagged for a closer look

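In the share of Muc19-high cells, 1 gland stood apart from the rest of its group in 3 of 4 groups. These were the double-mutant P90 gland of replicate 6 at 11.4%, the double-mutant P40 gland of replicate 7 at 10.2% and the control P90 gland of replicate 3 at 0.623%. Nupr1, a stress-induced nuclear protein, was at 36359 CPM in the Muc19-high cells of the double-mutant P40 gland of replicate 3, apart from the other double-mutant glands at P40. In all, 17 sets of glands were looked at in this way and 4 had such a gland. For values with a normal distribution, chance gives about 1 in 20. The shares are skewed and include many glands at 0, among them 4 of 6 control P90 glands. That rate therefore does not apply to them, and 4 of 17 cannot be read as an excess over chance. Control P90 replicate 3 held 4 Muc19-high cells in 642 (exact interval 0.170 to 1.59%). Its interval overlapped that of the next gland, replicate 1 (0.0223 to 0.664%).

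Genes that mark Muc19-high cells were also looked up in the other libraries of the series, where the cell of origin was not tested. By CITE-seq at P70 no cell passed the Muc19 rule, with 0 of 668 and 521 cells in the double-mutant glands, which allows a share of up to 0.449% and 0.576%, and 0 of 718 and 740 in the control glands, which allows up to 0.418% and 0.405%. BC048546 had 16 and 9 UMIs in the double-mutant CITE-seq glands and 0 in both control glands, whereas Muc19 had 4 and 4 UMIs in the double-mutant and 0 and 6 in the control glands. In the bulk libraries, 1 per genotype and of different age, BC048546 was at 2.42 CPM (84 counts) in the double-mutant and 0.0290 CPM (1 count) in the control library. Galnt12 was at 9.70 CPM (337 counts) and 0.550 CPM (19 counts). Nupr1 (260 and 157 CPM), Tcea3 (4.75 and 1.48 CPM) and Cgref1 (5.15 and 3.13 CPM) were also higher in the double-mutant library. Lman1l (6.39 and 17.0 CPM) and Mfsd4 (6.36 and 9.47 CPM) went the other way. These differences have no replicate check. Muc19 itself had 13 counts in the double-mutant and 29 in the control bulk library.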

How the results depend on the processing

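The difference in the share of Muc19-high cells between genotypes kept its direction in all alternatives. Its unadjusted p (0.0247, adjusted over the 4 tests of shares 0.0987) rose above 0.05 at a Muc19 share of 1% (2.08 points, permutation p = 0.0858), at 5% (1.06, permutation p = 0.0885), with BC048546 at 2% or more (1.81, permutation p = 0.145, chosen after seeing the data) and within P40 (2.09) or P90 (2.25) alone. The stage difference in double-mutant glands (-0.190 points) reversed at 5% Muc19 (1.18), with cells of at least 500 UMIs (0.524) and with cells thinned to 500 UMIs (0.442). It also reversed without P90 replicate 4, a library the study left out of its sub-clusters (0.110). Within batches that hold both stages it was 3.61, over only 3 glands at P90 and 6 at P40. The sex difference (-0.512 points) reversed at 5% (0.277), with the replicate block (0.0552, 12 male against 12 female glands) and in control glands alone (0.00554). Whether the replicate numbers pair the glands was left undecided. Of 26 glands, 9 correlated best with one of their own number, and the count for unpaired glands was not computed. With the number as a block for genotype, the double-mutant glands of replicate 7 dropped out, as no control gland has that number. The genotype difference was then 1.73 points over 12 glands of each genotype (permutation p = 0.0177). The stage differences with the block were -0.354 in control (exact permutation p = 0.312) and -0.190 points in double-mutant glands (exact permutation p = 0.969). In the fits within Muc19-high cells a replicate block could not be fitted, nor could 5% Muc19 or glands with at least 20 cells, because the factors then coincide. The cause of these changes was not tested.

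Within Muc19-high cells the genotype count of 0 became 2 without the filter on low counts and 2 in P40 glands with at least 5 cells (0 to 2 with 1 gland left out). The 10 stage calls became 6 with DESeq2, 21 without the filter, 32 without the number of cells as covariate, 33 with batch and 2 without the libraries that go against their labelled sex (2 to 39 with 1 gland left out), and 40 of 131 values of the 8 named genes lost the call and 0 reversed. The single sex call became 0 with DESeq2, RLE factors, glands of at least 5 cells or batch, and 3 without the filter (0 to 3 with 1 gland left out). The 869 calls against acinar cells became 274 without the gland as block (no replicate block), 572 with at least 20 cells of each population, 269 at 5% Muc19 and 224 with acinar cells thinned (652 to 993 with 1 gland left out). The 508 calls against Dcpp-high cells became 810 without the filter, 165 without the block and 159 at 5% Muc19 (381 to 631 with 1 gland left out). Of 911 values of 50 genes named against acinar cells 1 reversed, Wfdc12 when thinned (0.0467), 19 lost and 9 gained the call, and of 849 values of 47 genes named against Dcpp-high cells 14 lost it. The thinning and the leaving out of glands in these fits were chosen after seeing the data. Depth was the limit for low genes: at a median of 1089 UMIs per cell, mucins and trefoil factors at 0 were not detected, which is not absence.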

Other observations

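Against all other cells of their gland, Muc19-high cells stood apart most in Gal, Lman1l, Sel1l3 and the pseudogene Rpl21-ps12, with median ratios of CPM over 9 glands of 139, 96.7, 78.5 and 77.9. The homeobox transcription factor Nkx2-3 had a ratio of 49.3 (0 to 525 over the glands), with a median of 205 CPM in Muc19-high and 2.12 CPM in other cells. Few of the cells were cycling by their transcripts, with 2 UMIs of Top2a and 5 of Mki67 in all 379 cells. These values are descriptions without a test, since the cells were chosen from the same libraries.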
